A study of Mus musculus with 7 samples.

Results

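The 49 genes described here encode the machinery of DNA replication and of mitosis, and they were followed in lung CD11b+ conventional dendritic cells (cDC2s) of mice. They were listed by name: 25 were grouped under the S phase or its preparation and 24 under the G2 and M phases. The grouping does not mean that a gene is used in that phase alone. Each was read from the probeset that the platform annotation gives to that symbol alone, or from the brightest such probeset. This gave 48 of the 49 genes, among 19938 genes measured in all. Ccnb1 had no such probeset and was not analysed here.

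RNA was hybridised to 7 arrays (Affymetrix Mouse Gene 1.0 ST), 1 for each pool of cells sorted from 10 female C57Bl/6 mice as Cd11c+, Mhc2+, Cd11b+, Ly6c- and Cd64-. Wild type mice had received saline (PBS, 2 pools) or 100 µg of house dust mite extract (HDM, 2 pools) 12 h earlier, and Irf3-deficient mice had received the same dose of HDM (3 pools). Irf3 is a transcription factor that switches on interferon genes after innate sensing. No PBS-treated Irf3-deficient pool was analysed here, so whether the response to HDM itself differed between genotypes could not be tested, and neither could a difference present before treatment.

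A cell that divides first copies its DNA. The MCM helicase is loaded on replication origins, opens the double helix and is followed by polymerases and their sliding clamp, while ribonucleotide reductase supplies the building blocks. In G2 and M, cyclins and the kinase CDK1 drive the condensation of chromosomes, their attachment to the spindle and their separation. Most of these genes are transcribed mainly in cycling cells. Mature dendritic cells arise from dividing precursors in the bone marrow, and a part of the cDC2s in peripheral tissue still divides.

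Genes of each phase are known to share short promoter motifs, so the promoters of the measured members were read from RefSeq models (GRCm38.p6), over the 250 bases before the start of transcription. A promoter was found for 21 S phase and 18 G2 and M phase members, and a gene with several was counted by any of them. The motif of E2F factors, which act at the entry into S phase, was searched as TTTCCCGC, TTTCGCGC, TTTGCCGC or TTTGGCGC on both strands. It was found in 7 of the 21 S phase members (33.3%), in 1 of the 18 G2 and M phase members (5.6%, Cdk1) and in 2.2% of all 27025 genes with a promoter. In a wider list, 6 of 36 other replication and S phase genes (16.7%) held it. So did 5 of 55 other G2 and M phase genes (9.1%). The 7 S phase members were Mcm5, Mcm6, Mcm7, Cdc6, Pola1, Rfc3 and Uhrf1. Of these, the 3 with the smallest p in the F test over the 3 groups are shown, each with the match in capitals. They are Pola1 at chrX:93632156-93632405 (minus strand), Rfc3 at chr5:151651209-151651458 (minus strand) and Uhrf1 at chr17:56304063-56304312 (plus strand).
Pola1: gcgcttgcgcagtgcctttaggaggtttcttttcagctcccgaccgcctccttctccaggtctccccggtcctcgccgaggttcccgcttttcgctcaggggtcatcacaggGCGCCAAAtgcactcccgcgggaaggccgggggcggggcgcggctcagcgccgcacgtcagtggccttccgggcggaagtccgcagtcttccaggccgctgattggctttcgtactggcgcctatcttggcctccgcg
Rfc3: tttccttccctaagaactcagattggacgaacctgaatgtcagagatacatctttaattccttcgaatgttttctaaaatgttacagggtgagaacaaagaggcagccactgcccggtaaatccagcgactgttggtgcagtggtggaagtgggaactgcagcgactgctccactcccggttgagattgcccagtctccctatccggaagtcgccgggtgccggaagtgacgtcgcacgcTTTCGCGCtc
Uhrf1: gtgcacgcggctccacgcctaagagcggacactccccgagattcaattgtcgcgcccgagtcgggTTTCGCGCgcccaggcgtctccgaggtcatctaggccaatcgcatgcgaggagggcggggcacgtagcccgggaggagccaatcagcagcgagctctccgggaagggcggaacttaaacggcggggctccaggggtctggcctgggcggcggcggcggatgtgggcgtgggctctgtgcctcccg

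The CHR element, a motif of genes expressed late in the cycle, was searched as TTTGAA or TTCGAA on both strands. It was found in 9 of the 18 G2 and M phase members (50.0%), in 5 of the 21 S phase members (23.8%) and in 19.6% of all genes. In the wider list it was found in 40.0% of other G2 and M phase genes and 16.7% of other S phase genes. The 9 G2 and M phase members were Top2a, Mki67, Cdk1, Ccnb2, Bub1b, Cdc20, Kif11, Ube2c and Hmgb2. The CCAAT box, common in promoters of cell cycle genes, was read on both strands as CCAAT. None of the searched words contains another motif's word whole, although neighbouring matches can share bases. At least 2 copies of CCAAT lay in 11 of the 18 G2 and M phase members (61.1%), in 6 of the 21 S phase members (28.6%) and in 11.5% of all genes. The phases differed little in the wider list. There 36.4% of other G2 and M phase genes and 33.3% of other S phase genes held at least 2 copies. The promoters below carry the CHR letters in capitals and belong to a chromosome-untangling enzyme, a mitotic activator and a chromosome surface protein: Top2a at chr11:99024190-99024439, Cdc20 at chr4:118437344-118437593 and Mki67 at chr7:135716380-135716629, all on the minus strand. A match describes the letters and not a bound site.
Top2a: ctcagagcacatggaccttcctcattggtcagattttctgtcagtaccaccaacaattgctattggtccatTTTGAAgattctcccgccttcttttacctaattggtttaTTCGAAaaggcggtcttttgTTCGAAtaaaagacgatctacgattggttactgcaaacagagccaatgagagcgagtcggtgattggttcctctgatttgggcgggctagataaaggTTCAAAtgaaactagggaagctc
Cdc20: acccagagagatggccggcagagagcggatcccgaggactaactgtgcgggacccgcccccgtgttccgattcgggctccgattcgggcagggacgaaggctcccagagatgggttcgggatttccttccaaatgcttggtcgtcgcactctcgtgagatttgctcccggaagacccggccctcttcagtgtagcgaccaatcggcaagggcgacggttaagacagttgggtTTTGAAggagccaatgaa
Mki67: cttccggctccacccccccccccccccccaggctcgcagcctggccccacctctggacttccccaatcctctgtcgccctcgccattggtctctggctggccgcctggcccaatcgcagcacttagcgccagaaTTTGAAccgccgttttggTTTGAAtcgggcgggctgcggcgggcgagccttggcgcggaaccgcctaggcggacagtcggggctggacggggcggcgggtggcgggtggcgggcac

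The deposited values are log2 levels. All 48 members lay above log2 7.25, the level under which 95% of 1027 olfactory receptor genes fell, and 63.5% of all genes lay above it too. Irf3 itself was the check on the genotype: it stood at 9.48 and 9.56 in the PBS wild type pools, 9.59 and 9.57 in the HDM wild type pools, and 8.26, 8.13 and 8.30 in the HDM Irf3-deficient pools, a difference between genotypes of -1.35 ± 0.11 (adjusted p = 2.11e-06). Itgax, H2-Ab1, H2-Aa, Sirpa, Irf4 and Flt3, from a list of cDC2 and general dendritic cell markers, were bright in the sorted cells. Clec4a4, of the same list, lay under the dim level. Of 11 T, NK and B cell markers 7 lay under it (Cd3d, Cd3g, Cd79a, Ncr1, Klrb1c, Ms4a1 and Pax5) and 4 above it (Cd3e, Cd4, Cd8a and Nkg7). Above it lay all 15 monocyte and macrophage, all 8 alveolar macrophage and 5 of 8 neutrophil markers. So did all 10 epithelial, endothelial and stromal markers, the brightest of which stood at log2 11.9 to 13.6 in the arrays. Whether RNA of other cells was present in the pools was not tested. A gene is said to have risen or fallen where its limma adjusted p, taken over all 19938 genes, was under 0.05. Differences are log2 values ± SE of the fit, and the p-values measure the spread between these pools.

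Many replication and mitosis genes were lower in HDM-treated than in PBS-treated wild type cDC2s. Of 48 members 20 fell and 2 rose, where 9.23% of all genes fell and 8.35% rose. The median difference over the members was -0.44, against 0.03 over all genes. In the S phase 12 of 25 members fell and 1 rose (median -0.41), and in the G2 and M phases 8 of 23 fell and 1 rose (median -0.57). Stricter lists of 17 S phase and 19 G2 and M phase members gave medians of -0.41 and -0.57. The count by phase moved with the fit. With a replicate block, 10 S phase and 14 G2 and M phase members fell. With only the 2 groups compared 11 and 13 fell, and 12 and 13 did so without Irf3-deficient replicate 1. Fewer members of both phases passed without PBS replicate 1 or HDM wild type replicate 2. Those fits leave 1 array in a group, which weakens the test for every gene. Both HDM wild type pools lay below both PBS pools for 37 of the 48 members, where 24.1% of all genes did so. In pools of sorted cells, fewer cycling cells and less of these transcripts per cell cannot be told apart.

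Between HDM-treated Irf3-deficient and HDM-treated wild type cells, 39 of the 48 members did not pass the threshold, which does not show that they were equal. The other members differed in both directions: 5 were lower and 4 higher, where 9% and 10.7% of all genes were. The median difference was 0.17 over the S phase members, 0.05 over the G2 and M phase members and 0.00 over all genes. All 3 Irf3-deficient pools lay below both HDM wild type pools for 9 members (20.5% of all genes) and above them for 12 (23.2% of all genes), of which 11 were S phase genes. As shares of the 48 members, these counts are near those of all genes, but they were uneven by phase. The Irf3-deficient pools lay wholly above for 11 of 25 S phase and 1 of 23 G2 and M phase members. They lay wholly below for 5 and 4. All 4 members called higher were S phase genes, and 3 S phase and 2 G2 and M phase members were called lower. Without Irf3-deficient replicate 2, 5 S phase and 3 G2 and M phase members were higher. Calls and overlap both depend on the spread within groups. Its median SD was 0.291 for the G2 and M phase members and 0.147 for the S phase members. The difference between the phases was not tested.

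Set against PBS wild type cells, the HDM Irf3-deficient cells were lower for 17 members and higher for 1, where 4.91% and 5.89% of all genes were. Genotype and treatment both differ in this comparison. The lower members were 11 of 23 in the G2 and M phases (median over the phase -0.61). In the S phase they were 6 of 25 (median -0.24). Their levels lay wholly below the PBS pools for 28 members (17% of all genes). The 3 comparisons share arrays in pairs, so their values are given side by side and not as evidence for each other, and the difference between the phases was not tested.

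Many of these calls were lost when 1 array was left out. Leaving out a wild type pool leaves 1 array in its group, which weakens the test for every gene. Shares of all genes called in these fits are not given here. Without replicate 1 of the PBS pools, 6 members fell with HDM in wild type cells, and without replicate 2 of the HDM wild type pools also 6. The falls of Pola1, Rrm1, Stmn1 and Cenpa, and the rises of Pttg1 and Rfc3, passed in all 7 fits that left out 1 array. In the Irf3-deficient cells against PBS wild type cells, only Gins1, Pttg1 and Stmn1 were lower in all 7 such fits. The members lower there numbered 9 without Irf3-deficient replicate 2 and 11 without Irf3-deficient replicate 3. By phase these were 3 and 4 S phase members and 6 and 7 G2 and M phase members. Against HDM wild type cells, 3 members were lower without HDM wild type replicate 1, and 8 were higher without Irf3-deficient replicate 2. Other settings ended single calls. In wild type cells, the falls of Kif11 and Rfc4 were lost with robust eBayes, those of Mcm6, Plk1 and Rfc4 with median centring, that of Mcm6 with only the 2 groups compared, those of Plk1 and Rfc4 with probesets of several symbols added, and those of Mcm3 and Mcm6 with the replicate block. Against PBS cells, the differences of the Irf3-deficient cells were lost for Aurkb and Kif11 with robust eBayes, for Aurkb and Pcna with median centring, for Pcna without an intensity trend, for Bub1b and Pcna with probesets of several symbols, and for Pola1 with the replicate block.

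**Figure D1:**
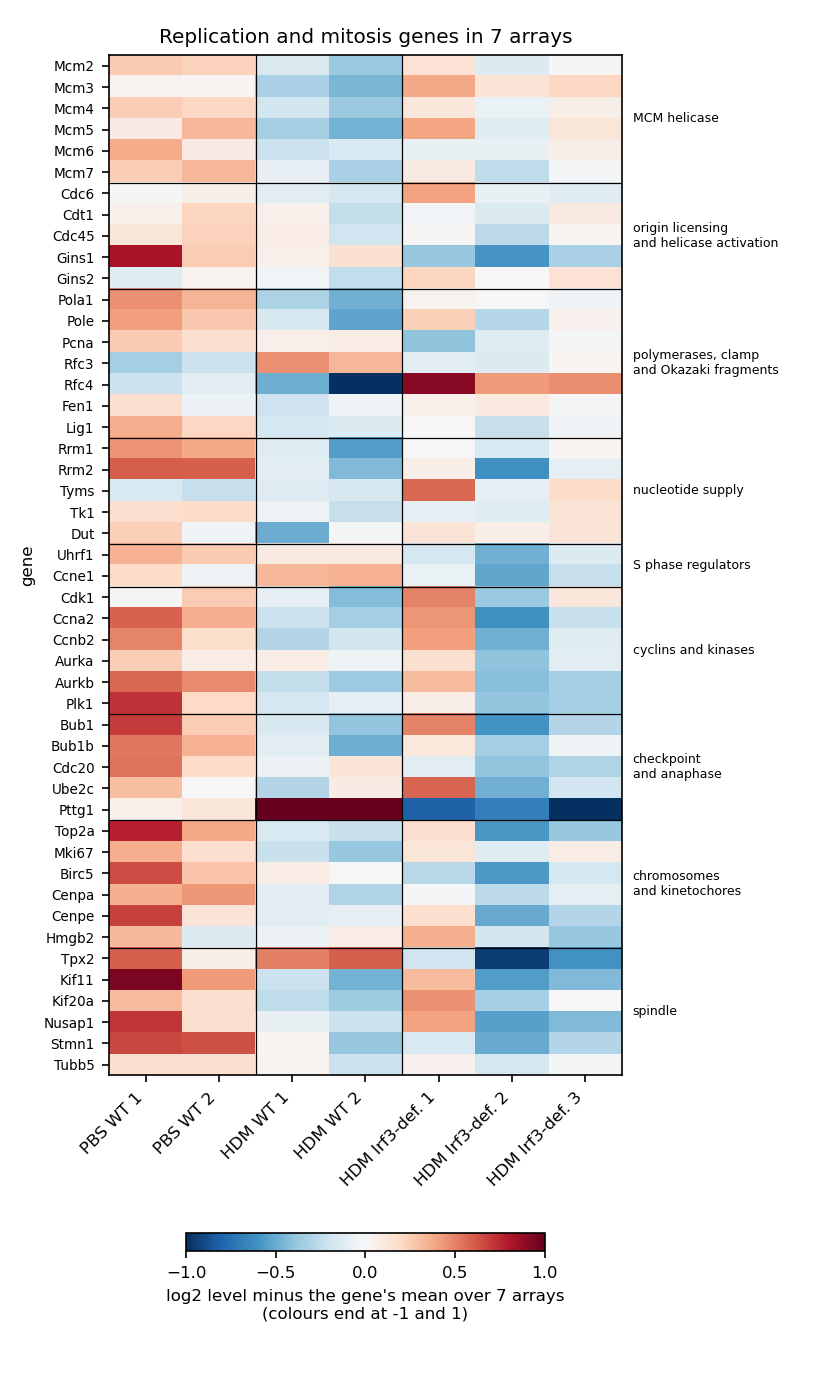
Level of each of the 48 measured members in each of the 7 arrays, as the log2 level minus the gene's mean over the arrays, with S phase genes and G2 and M phase genes apart. The PBS wild type arrays are the highest for most members, and Pttg1, Rfc3 and Ccne1 are among those highest in the HDM wild type arrays.

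The MCM helicase fell as a whole. All 6 subunits, Mcm2 to Mcm7, were lower in HDM-treated than in PBS-treated wild type cells, by log2 differences of -0.61 to -0.41. Mcm5 stood at 10.47 and 10.72 in the PBS wild type pools, 10.05 and 9.92 in the HDM wild type pools, and 10.79, 10.27 and 10.51 in the HDM Irf3-deficient pools. Its difference with HDM in wild type cells was -0.61 ± 0.16 (adjusted p = 0.0175), and the Irf3-deficient cells exceeded the HDM wild type cells by 0.53 ± 0.14 (adjusted p = 0.0194). The latter was lost without HDM wild type replicate 2 (adjusted p = 0.123). The Irf3-deficient pools covered the range of the PBS pools, from which they were -0.08 ± 0.14 (adjusted p = 0.822) apart.

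Mcm3 also fell with HDM and was higher without Irf3. Its levels were 9.33 and 9.31 in the PBS wild type pools, 8.97 and 8.84 in the HDM wild type pools, and 9.67, 9.43 and 9.50 in the HDM Irf3-deficient pools. It fell with HDM in wild type cells by a difference of -0.42 (adjusted p = 0.0324) and was higher in Irf3-deficient than in wild type cells after HDM by 0.63 ± 0.11 (adjusted p = 0.00144), the 3 Irf3-deficient pools lying above all 4 wild type pools. Mcm2 stood at 10.20 and 10.17 in the PBS wild type pools, 9.80 and 9.57 in the HDM wild type pools, and 10.08, 9.80 and 9.95 in the HDM Irf3-deficient pools. Its fall in wild type cells was -0.50 ± 0.13 (adjusted p = 0.0164), and the Irf3-deficient cells lay between the wild type groups, with replicate 2 level with HDM wild type replicate 1, 0.26 above HDM wild type (95% CI 0.01 to 0.52, adjusted p = 0.163). Mcm4, Mcm6 and Mcm7 fell, by differences of -0.50, -0.41 and -0.49, and did not pass between genotypes, at 0.31, 0.15 and 0.15. None of the 6 subunits passed between Irf3-deficient and PBS wild type cells. Except for that of Mcm6, lost in 5 of the 7 fits with 1 array left out, each MCM fall was lost in 2 or 3 of those fits, in every case without HDM wild type replicate 2.

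None of the factors that load and start the helicase (Cdc6, Cdt1, Cdc45, Gins1 and Gins2) passed with HDM in wild type cells, their differences running from -0.44 for Gins1 to -0.10 for Gins2. Gins1, a subunit of the GINS complex that joins the MCM ring in the active helicase, stood at 8.63 and 8.06 in the PBS wild type pools, 7.86 and 7.96 in the HDM wild type pools, and 7.43, 7.22 and 7.48 in the HDM Irf3-deficient pools. It was lowest in the Irf3-deficient pools, all of them below all wild type pools, with differences of -0.53 ± 0.15 (adjusted p = 0.0248) from HDM wild type and -0.97 ± 0.15 (adjusted p = 0.00151) from PBS wild type. The first of these was lost without either HDM wild type array or without Irf3-deficient replicate 2. Gins2, of the same complex, was at 0.25 (95% CI -0.003 to 0.51) between the genotypes.

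Among the polymerases and the clamp loader, both directions occurred. Pola1, the catalytic subunit of the polymerase that makes primers, stood at 9.59 and 9.47 in the PBS wild type pools, 8.81 and 8.65 in the HDM wild type pools, and 9.16, 9.13 and 9.10 in the HDM Irf3-deficient pools. It fell in wild type cells by a difference of -0.80 (adjusted p = 0.000371), or 1.74-fold, and the Irf3-deficient pools lay between the wild type groups, 0.40 ± 0.11 (adjusted p = 0.0168) above HDM and -0.40 ± 0.11 (adjusted p = 0.0316) from PBS. The 3 groups did not overlap. The difference between genotypes was lost without HDM wild type replicate 2 (adjusted p = 0.166) or Irf3-deficient replicate 2, and that from PBS cells in 4 of the 7 fits. Pole, the leading-strand polymerase, and Lig1, which seals Okazaki fragments, fell in wild type cells, with differences of -0.69 and -0.44, both lost without PBS replicate 1 or HDM wild type replicate 2.

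Rfc3 and Rfc4 belong to the same complex, which loads the clamp on DNA, and moved in opposite directions. Rfc4 stood at 10.26 and 10.37 in the PBS wild type pools, 9.99 and 9.48 in the HDM wild type pools, and 11.39, 10.90 and 10.94 in the HDM Irf3-deficient pools. It fell with HDM in wild type cells by a difference of -0.58 (adjusted p = 0.0450), a call lost in 5 of the 7 fits with 1 array left out. The Irf3-deficient pools lay above all wild type pools, by 1.34 ± 0.17 (adjusted p = 0.000113) over HDM cells, or 2.54-fold, and by 0.76 ± 0.17 (adjusted p = 0.0118) over PBS cells, the latter lost without either PBS array. Rfc3 stood at 8.67 and 8.80 in the PBS wild type pools, 9.47 and 9.34 in the HDM wild type pools, and 8.90, 8.87 and 9.03 in the HDM Irf3-deficient pools. It rose in HDM-treated wild type cells by 0.67 ± 0.12 (adjusted p = 0.00152) and was lower in Irf3-deficient than in wild type cells after HDM by a difference of -0.47 ± 0.11 (adjusted p = 0.00753), which was lost without HDM wild type replicate 1 (adjusted p = 0.0692). The Irf3-deficient pools lay above the PBS pools, at 0.20 (adjusted p = 0.309).

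The clamp itself is Pcna, a ring that tethers polymerases to DNA. It stood at 12.60 and 12.49 in the PBS wild type pools, 12.38 and 12.40 in the HDM wild type pools, and 11.93, 12.20 and 12.32 in the HDM Irf3-deficient pools. All Irf3-deficient pools were below all wild type pools, and the difference from PBS cells was -0.39 ± 0.11 (adjusted p = 0.0372), lost in 4 of the 7 fits with 1 array left out. Within wild type cells the difference was -0.15 (adjusted p = 0.481). A second Pcna probeset also gave -0.39. Fen1, a nuclease that trims Okazaki fragments, had no passing difference.

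Nucleotide supply was divided. Both ribonucleotide reductase subunits fell with HDM in wild type cells. Rrm1, the large subunit, stood at 10.86 and 10.78 in the PBS wild type pools, 10.28 and 9.85 in the HDM wild type pools, and 10.40, 10.25 and 10.43 in the HDM Irf3-deficient pools. Its fall was -0.76 ± 0.14 (adjusted p = 0.00220), and the Irf3-deficient cells were 0.30 above HDM wild type cells (95% CI 0.02 to 0.58, adjusted p = 0.141) and -0.46 ± 0.13 (adjusted p = 0.0378) from PBS cells. That last difference was lost in 4 of the 7 fits. Rrm2, the small subunit made in S phase, stood at 10.00 and 9.99 in the PBS wild type pools, 9.28 and 8.95 in the HDM wild type pools, and 9.45, 8.78 and 9.30 in the HDM Irf3-deficient pools. It fell by 0.88 (adjusted p = 0.00587), or 1.84-fold, and the Irf3-deficient cells lay close to the HDM wild type cells, 0.06 apart (95% CI -0.32 to 0.44), and -0.82 ± 0.17 (adjusted p = 0.00961) from PBS cells. The fall in wild type cells was lost without HDM wild type replicate 2, and the difference from PBS cells without either PBS array.

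Tyms, which makes thymidylate, stood apart from the reductase. It stood at 9.12 and 9.04 in the PBS wild type pools, 9.15 and 9.11 in the HDM wild type pools, and 9.85, 9.19 and 9.46 in the HDM Irf3-deficient pools. The wild type groups overlapped, at 0.05 (adjusted p = 0.905), and all Irf3-deficient pools were above all wild type pools, by 0.37 over HDM cells (95% CI 0.03 to 0.71, adjusted p = 0.134). Tk1, which salvages thymidine, and Dut, which removes dUTP, had differences of -0.32 and -0.36 with HDM in wild type cells. Neither passed in any comparison of the main fit. A second Tk1 probeset, at a mean of log2 8.25, gave a larger fall of -0.50 in wild type cells.

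Of the S phase regulators, Uhrf1, which keeps DNA methylation on new strands, stood at 9.16 and 9.06 in the PBS wild type pools, 8.90 and 8.89 in the HDM wild type pools, and 8.63, 8.33 and 8.67 in the HDM Irf3-deficient pools. All Irf3-deficient pools were below all wild type pools, by a difference of -0.35 from HDM cells (adjusted p = 0.0601) and by a difference of -0.57 ± 0.12 (adjusted p = 0.00966) from PBS cells. Cyclin E1 (Ccne1), which drives the entry into S phase, stood at 9.09 and 8.86 in the PBS wild type pools, 9.25 and 9.26 in the HDM wild type pools, and 8.84, 8.39 and 8.68 in the HDM Irf3-deficient pools. It was highest in HDM-treated wild type cells, 0.28 from PBS cells (adjusted p = 0.265), and the Irf3-deficient cells were lower than these by a difference of -0.62 ± 0.14 (adjusted p = 0.00614), with no overlap of the 3 groups. The difference of Uhrf1 from PBS cells was lost without PBS replicate 1 (adjusted p = 0.0994).

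**Figure D2:**
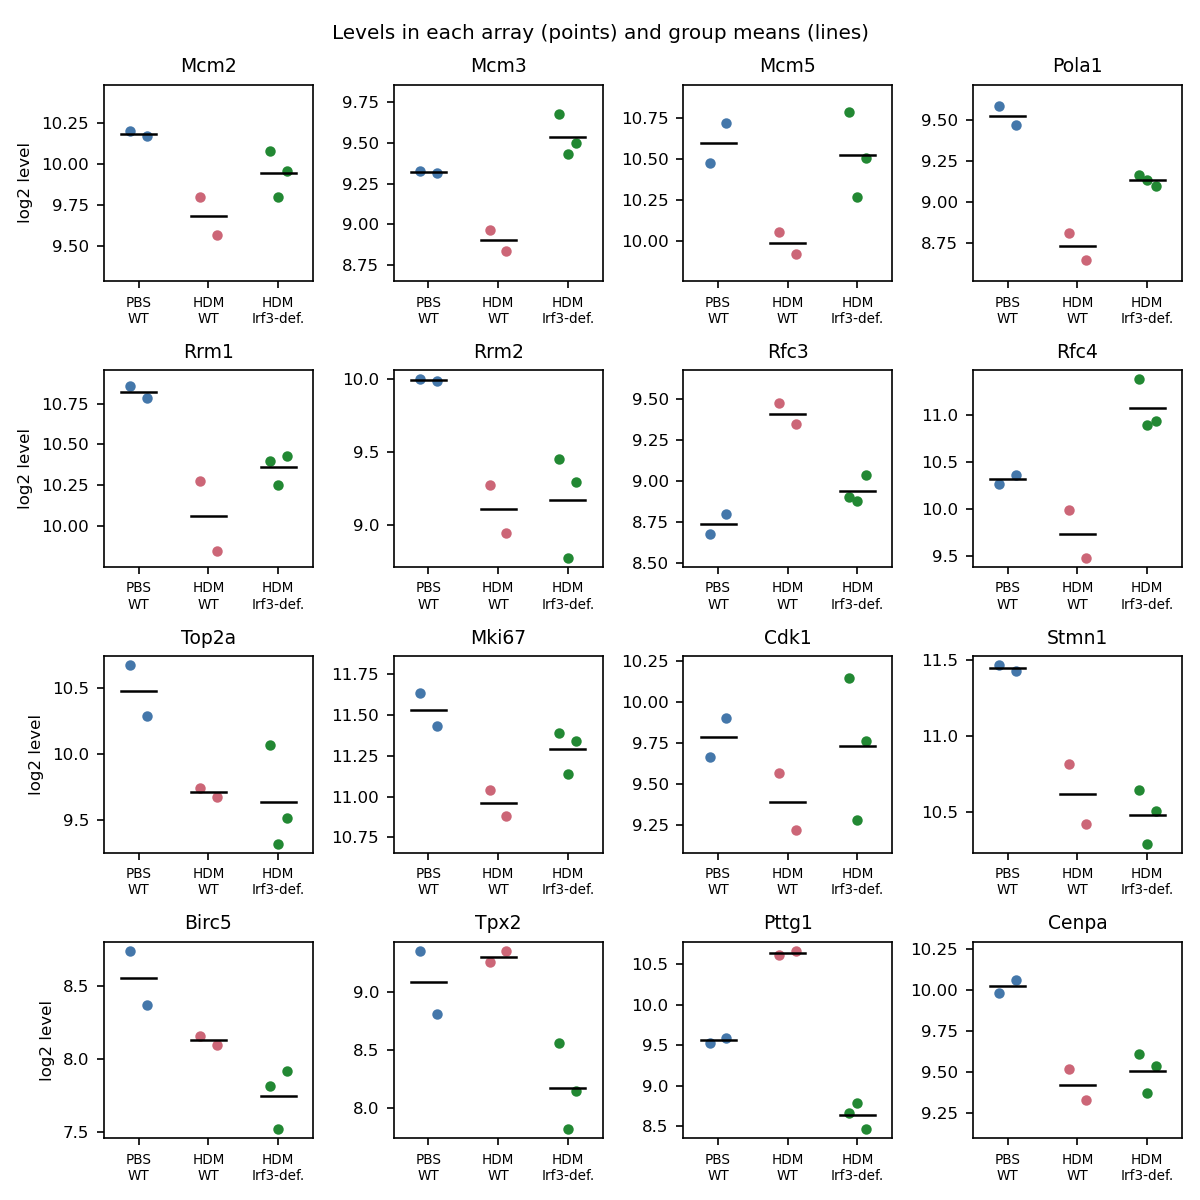
Log2 level in each of the 7 arrays of the members whose names head the panels, with a point for each array and a line for each group mean; each panel has its own axis. Most means are highest in the PBS wild type arrays, whereas those of Pttg1, Rfc3 and Tpx2 are highest in the HDM wild type arrays and those of Rfc4 and Mcm3 in the Irf3-deficient arrays.

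Among the mitotic members the fall with HDM in wild type cells reached 2.04-fold for Kif11, a spindle motor. Kif11 stood at 10.41 and 9.89 in the PBS wild type pools, 9.25 and 8.99 in the HDM wild type pools, and 9.78, 8.90 and 9.02 in the HDM Irf3-deficient pools. The difference was -1.03 ± 0.25 (adjusted p = 0.0117) in wild type cells, 0.12 between genotypes (95% CI -0.38 to 0.61) and -0.91 ± 0.23 (adjusted p = 0.0221) between Irf3-deficient and PBS cells. Irf3-deficient replicate 1 lay near the PBS pools and the others near the HDM wild type pools.

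Stmn1, which destabilises microtubules, was lower in both HDM groups than in PBS wild type cells. It stood at 11.47 and 11.43 in the PBS wild type pools, 10.81 and 10.42 in the HDM wild type pools, and 10.64, 10.29 and 10.51 in the HDM Irf3-deficient pools. Both HDM groups lay below the PBS pools, by a difference of -0.83 ± 0.15 (adjusted p = 0.00155) in wild type and -0.97 ± 0.13 (adjusted p = 0.000716) in Irf3-deficient cells, and overlapped each other, at -0.14 (95% CI -0.43 to 0.15). Both differences passed in all 7 fits with 1 array left out and under each other setting. A second Stmn1 probeset gave -0.86 and -0.99 for the same comparisons.

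Top2a, which untangles chromosomes, stood at 10.68 and 10.29 in the PBS wild type pools, 9.75 and 9.67 in the HDM wild type pools, and 10.07, 9.32 and 9.52 in the HDM Irf3-deficient pools. It fell by 0.77 ± 0.21 (adjusted p = 0.0196) in wild type cells and was -0.85 ± 0.19 (adjusted p = 0.0120) between Irf3-deficient and PBS cells, while the 2 HDM groups overlapped at -0.08 (95% CI -0.48 to 0.33). A second, dim Top2a probeset at a mean of log2 4.68 gave 0.13 in wild type cells, and the mean of both was -0.32 (adjusted p = 0.155). Cenpa, the histone of centromeres, stood at 9.99 and 10.07 in the PBS wild type pools, 9.52 and 9.33 in the HDM wild type pools, and 9.61, 9.37 and 9.54 in the HDM Irf3-deficient pools. It fell by 0.60 ± 0.13 (adjusted p = 0.00464) in wild type cells, with the Irf3-deficient pools at -0.52 ± 0.11 (adjusted p = 0.0121) from the PBS pools and overlapping the HDM wild type pools.

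Mki67, which coats mitotic chromosomes and is the usual marker of cycling cells, stood at 11.63 and 11.43 in the PBS wild type pools, 11.04 and 10.88 in the HDM wild type pools, and 11.39, 11.14 and 11.34 in the HDM Irf3-deficient pools. It fell in wild type cells by a difference of -0.57 ± 0.12 (adjusted p = 0.00550), lost without PBS replicate 1 (adjusted p = 0.0678). The Irf3-deficient pools lay between the other groups with no overlap, 0.33 above HDM wild type cells (95% CI 0.09 to 0.57, adjusted p = 0.0577) and -0.24 from PBS cells (adjusted p = 0.215). Birc5, the survivin subunit of the complex that corrects spindle attachments, lay at 8.75 and 8.37 in the PBS wild type pools, 8.16 and 8.10 in the HDM wild type pools, and 7.82, 7.52 and 7.92 in the HDM Irf3-deficient pools, in 3 groups without overlap. Only the difference from PBS to Irf3-deficient cells passed, at -0.81 ± 0.14 (adjusted p = 0.00297). Cenpe, a kinetochore motor, and Hmgb2, a chromatin protein, passed in no comparison.

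The 6 measured members grouped as cyclins and kinases all had negative differences with HDM in wild type cells, and 2 of them passed. Aurkb, of the same complex as Birc5, and Plk1, a kinase of mitotic entry, fell in wild type cells, with differences of -0.82 and -0.59, and were lower in Irf3-deficient than in PBS cells, with -0.67 and -0.68. Cdk1, the central mitotic kinase, stood at 9.66 and 9.91 in the PBS wild type pools, 9.57 and 9.22 in the HDM wild type pools, and 10.15, 9.28 and 9.77 in the HDM Irf3-deficient pools. Its difference was -0.39 with HDM in wild type cells (95% CI -0.88 to 0.09, adjusted p = 0.285) and 0.34 between the genotypes (95% CI -0.10 to 0.78). Ccnb2, a mitotic cyclin, stood at 11.81 and 11.50 in the PBS wild type pools, 11.03 and 11.14 in the HDM wild type pools, and 11.74, 10.85 and 11.21 in the HDM Irf3-deficient pools, with -0.57 in wild type cells (adjusted p = 0.0935) and 1 Irf3-deficient pool at the level of PBS cells. Ccna2 was at -0.75 (adjusted p = 0.0515) and Aurka at -0.14 in wild type cells.

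The member with the largest change, Pttg1, went against most of the others. Pttg1 encodes securin, which holds back the enzyme that cuts sister chromatids apart. It stood at 9.53 and 9.59 in the PBS wild type pools, 10.62 and 10.67 in the HDM wild type pools, and 8.67, 8.79 and 8.46 in the HDM Irf3-deficient pools. It rose 2.12-fold with HDM in wild type cells, a log2 difference of 1.08 ± 0.13 (adjusted p = 6.72e-05), and the Irf3-deficient cells were 4.01-fold lower than HDM wild type cells, a difference of -2.00 ± 0.12 (adjusted p = 2.07e-07). They were also below the PBS cells, by a difference of -0.92 ± 0.12 (adjusted p = 0.000396). The 3 groups were wholly apart, and all 3 differences passed in every fit.

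Tpx2, which activates Aurora A on the spindle, shared the low level without Irf3. It stood at 9.36 and 8.81 in the PBS wild type pools, 9.26 and 9.36 in the HDM wild type pools, and 8.56, 7.81 and 8.15 in the HDM Irf3-deficient pools. The wild type groups overlapped, at 0.22 (95% CI -0.25 to 0.69), and the Irf3-deficient pools lay below them all, by a difference of -1.13 ± 0.20 (adjusted p = 0.00124) from HDM and -0.91 ± 0.20 (adjusted p = 0.0104) from PBS cells. The last was lost without PBS replicate 1 (adjusted p = 0.174). Cdc20, which activates the anaphase ligase, stood at 8.74 and 8.37 in the PBS wild type pools, 8.14 and 8.32 in the HDM wild type pools, and 8.08, 7.80 and 7.89 in the HDM Irf3-deficient pools. It was lowest in the Irf3-deficient pools, -0.63 ± 0.13 (adjusted p = 0.00905) from PBS cells, with -0.33 (adjusted p = 0.164) in wild type cells. Of the other checkpoint and spindle members, Bub1b fell in wild type cells by a difference of -0.73 and was lower in Irf3-deficient than in PBS cells by a difference of -0.53, while Bub1, Ube2c, Kif20a, Nusap1 and Tubb5 passed in no comparison. Without PBS replicate 1, the falls of Kif11, Top2a, Aurkb, Plk1 and Bub1b in wild type cells were lost, as were the differences from PBS cells of these 5 genes and of Birc5, Cdc20 and Cenpa. Without HDM wild type replicate 2, the falls of the same 5 genes in wild type cells were lost. That of Aurkb was also lost without PBS replicate 2, and that of Plk1 without HDM wild type replicate 1 or Irf3-deficient replicates 2 or 3. The differences from PBS cells of Aurkb, Bub1b, Kif11 and Plk1 were lost without Irf3-deficient replicate 2 or 3, that of Cenpa without Irf3-deficient replicate 2, and those of Aurkb, Bub1b and Cenpa without PBS replicate 2.

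**Figure D3:**
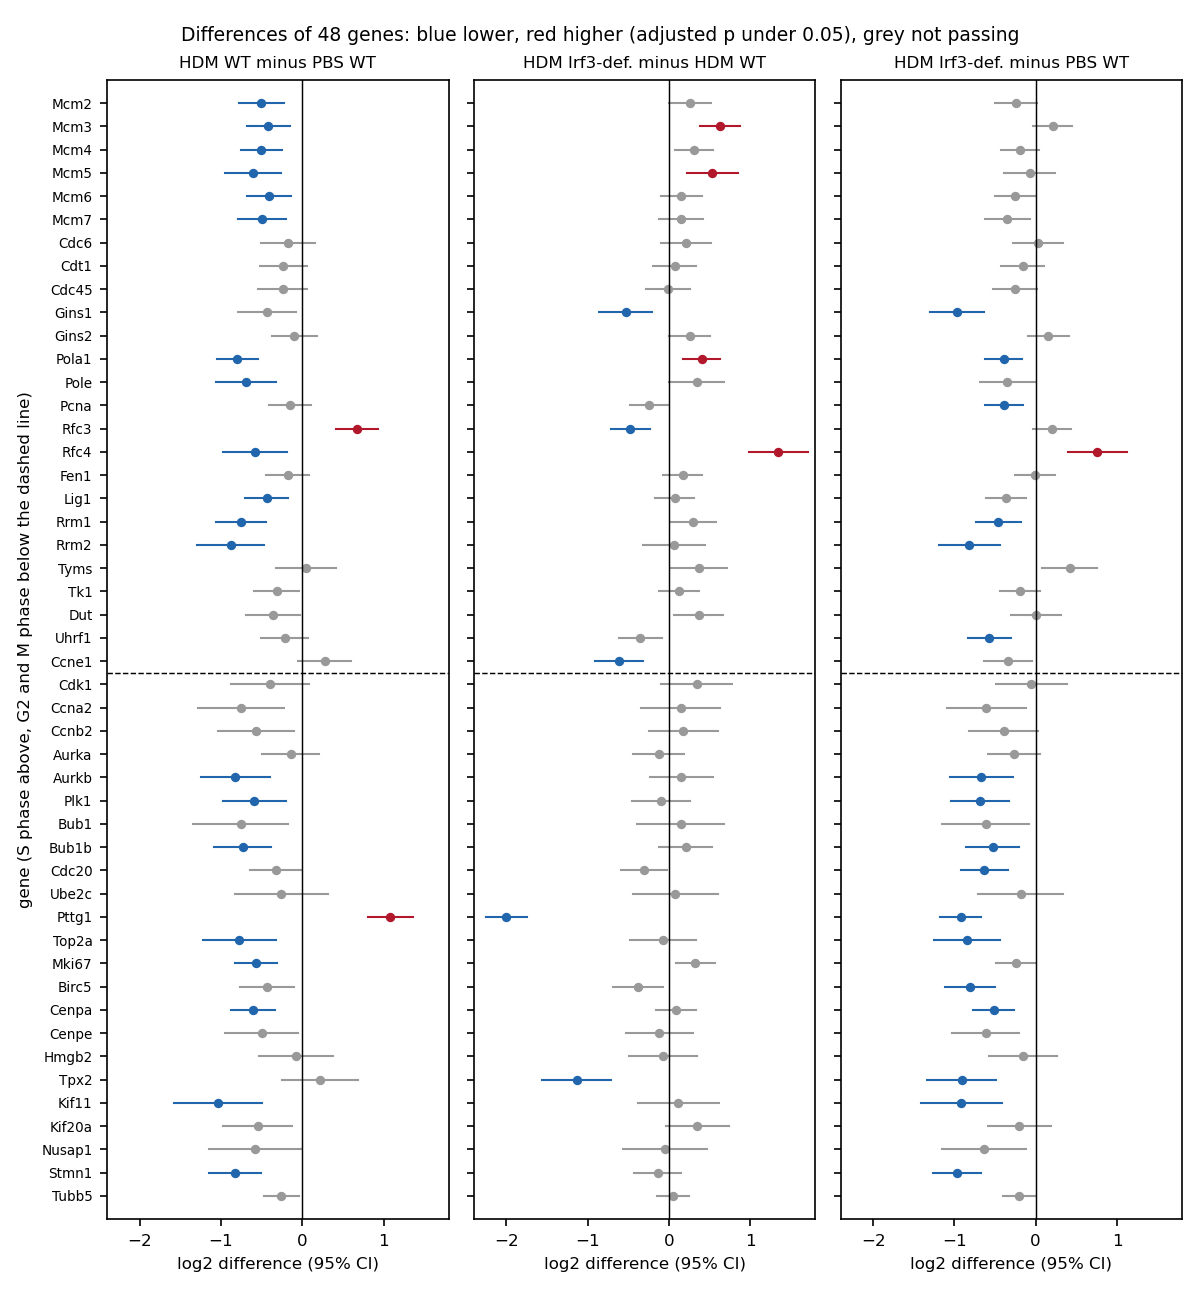
Log2 difference of each measured member in the 3 comparisons, with 95% confidence intervals, on a common scale. Most intervals lie below 0 for HDM-treated against PBS-treated wild type cells, most include 0 between the genotypes, and Pttg1 reaches -2.00 there.

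Pools of 1 group were spread more widely for the mitotic members. The median SD within groups was 0.291 for the G2 and M phase members, 0.147 for the S phase members and 0.113 for all genes. Irf3-deficient replicate 1 was the highest of its group for 21 of 23 G2 and M phase members (91.3%) and for 34.5% of all genes, and PBS replicate 1 exceeded replicate 2 for 19 of 23 (82.6%) and for 37.9% of all genes. The median of the G2 and M phase members, each taken around its mean over the 7 arrays, was 0.17 in Irf3-deficient replicate 1 and -0.48 and -0.29 in the others. It was 0.55 and 0.18 in the PBS pools and -0.11 and -0.21 in the HDM wild type pools. Without Irf3-deficient replicate 1, the G2 and M phase median between genotypes was -0.22 in place of 0.05, and 16 of 23 members were below PBS cells in place of 11.

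For the S phase members the same centred medians were 0.24 and 0.20 in the PBS pools, -0.13 and -0.23 in the HDM wild type pools and 0.05, -0.13 and 0.02 in the Irf3-deficient pools. The Irf3-deficient pools thus lay below both PBS pools for both phases, although the mitotic value of replicate 1 was next to that of PBS replicate 2. Scan dates and batches of these arrays are not given in the sources used here.

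The other genes of these phases, from a wider list, were set beside the members. For this list and those below, 9.23% of all genes fell and 8.35% rose with HDM in wild type cells. Between genotypes 9% of all genes were lower and 10.7% higher, and 4.91% and 5.89% for Irf3-deficient against PBS cells. Of 67 other G2 and M phase genes measured, 26 fell and none rose with HDM in wild type cells (median -0.51), 1 was lower and 2 higher between genotypes (median -0.01), and 29 were lower in Irf3-deficient than in PBS cells (median -0.48). Racgap1, needed for cytokinesis, and Ncapd2, a condensin subunit, fell in wild type cells, with differences of -0.997 ± 0.15 (adjusted p = 0.000401) and -0.87 ± 0.14 (adjusted p = 0.000823). In Irf3-deficient cells they were -0.79 ± 0.13 (adjusted p = 0.00260) and -0.81 ± 0.13 (adjusted p = 0.00169) from PBS cells, the former lost without PBS replicate 1 (adjusted p = 0.0575). Irf3-deficient replicate 1 was the highest of its group for 61 of these 67 genes (91%).

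Of 47 other replication and S phase genes, 13 fell and none rose in wild type cells (median -0.29). Between the genotypes 2 were lower and 7 higher (median 0.13), and 3 were lower in Irf3-deficient than in PBS cells (median -0.17). Pole2, a subunit of the leading-strand polymerase, was higher and Timeless, of the fork protection complex, lower in Irf3-deficient than in HDM wild type cells, with differences of 0.74 ± 0.14 (adjusted p = 0.00198) and -0.64 ± 0.11 (adjusted p = 0.00141). Wdr76 fell in wild type cells by a difference of -0.68 ± 0.12 (adjusted p = 0.00192).

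Regulators upstream of these genes were also listed. Of 31 cyclins, kinases and E2F factors, 5 fell and 1 rose in wild type cells, 2 were lower and 8 higher in Irf3-deficient than in HDM wild type cells, and 3 were lower and 5 higher than in PBS cells. Cyclin D2 (Ccnd2), which couples growth signals to the cycle, rose with HDM in wild type cells by 1.17 ± 0.08 (adjusted p = 9.01e-07). In Irf3-deficient cells Ccnd2 was at -0.57 (adjusted p = 0.000207) from HDM wild type cells and 0.59 (adjusted p = 0.000466) above PBS cells. Cdk6, a partner kinase of cyclin D2, was 0.64 ± 0.10 (adjusted p = 0.000630) higher in Irf3-deficient than in HDM wild type cells. Cyclin D1 (Ccnd1) was lower there, with a difference of -0.87 ± 0.08 (adjusted p = 1.36e-05). E2f1, an activator of S phase genes named after its values were seen, stood at 9.85 and 9.83 in the PBS wild type pools, 9.04 and 9.17 in the HDM wild type pools, and 10.13, 9.49 and 9.89 in the HDM Irf3-deficient pools. It fell in wild type cells by a difference of -0.74 ± 0.17 (adjusted p = 0.00919) and was 0.74 ± 0.16 (adjusted p = 0.00474) higher in Irf3-deficient than in HDM wild type cells, the Irf3-deficient pools covering the PBS level. The fall of E2f1 was lost without either PBS array (adjusted p up to 0.0600).

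Of 25 genes listed as brakes on the cycle or their regulators, 7 fell and 5 rose in wild type cells, where 9.23% and 8.35% of all genes did. Between genotypes 10 were lower and 6 higher, where 9% and 10.7% of all genes were. Cdkn1a, Trp53 and Btg3 had no probeset with their symbol alone and were not analysed here. Mxd1, an antagonist of Myc, rose with HDM in wild type cells by 1.69 ± 0.13 (adjusted p = 1.46e-06) and was lower in Irf3-deficient than in HDM wild type cells, with a difference of -1.04 ± 0.12 (adjusted p = 5.22e-05). Mxd4, of the same family, fell by 1.02 ± 0.12 (adjusted p = 6.72e-05) in wild type cells.

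Markers of other cells moved with the groups as well. Of 15 monocyte and macrophage markers, 13 fell and 2 rose with HDM in wild type cells (median -1.77), and 11 were higher and 3 lower in Irf3-deficient than in HDM wild type cells (median 1.09). Their mean log2 level was 10.9 to 11.2 in the PBS pools, 9.68 to 10.2 in the HDM wild type pools and 10.4 to 10.6 in the Irf3-deficient pools. Adgre1, coding for F4/80, fell by 2.05 ± 0.13 (adjusted p = 3.47e-07) in wild type cells. Fcgr1, which encodes the CD64 that the sort excluded, rose by 1.79 ± 0.19 (adjusted p = 2.20e-05) and was -1.67 ± 0.17 (adjusted p = 2.23e-05) in Irf3-deficient against HDM wild type cells. The part of these cells in the levels of the replication and mitosis genes was not tested.

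**Figure D4:**
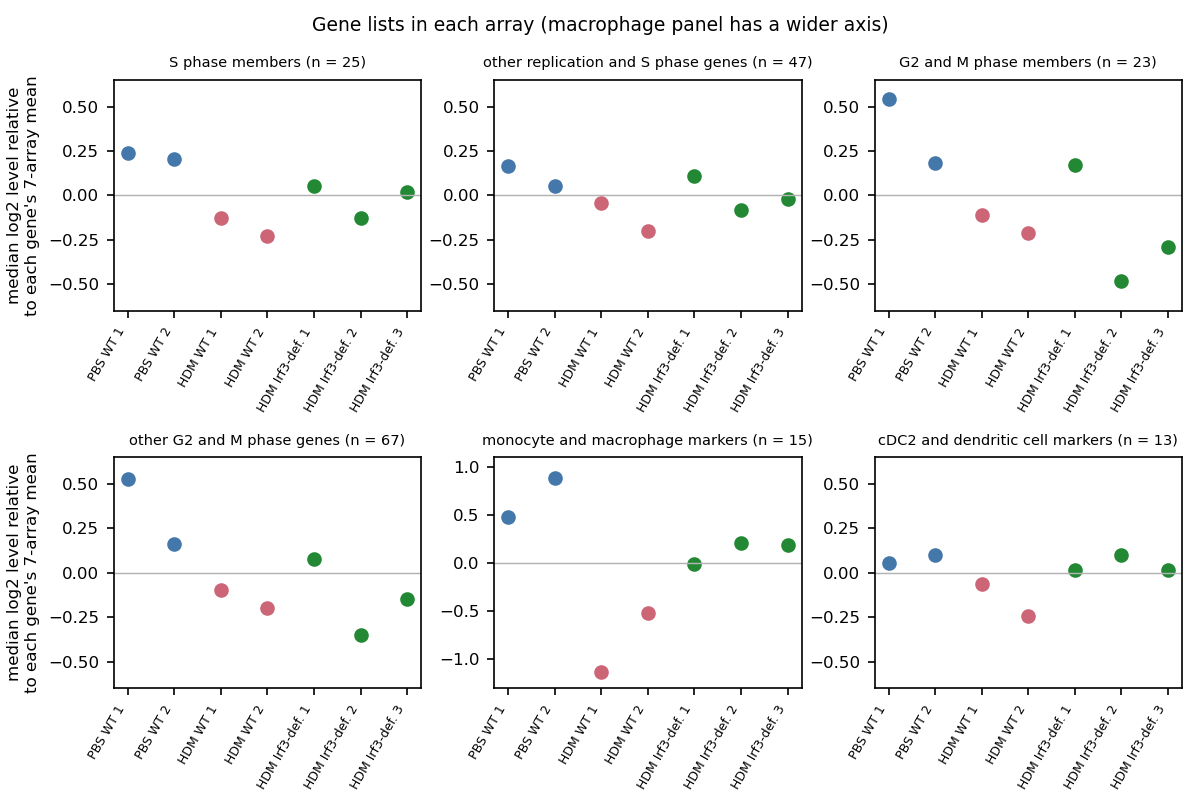
Median over each gene list of the log2 level around each gene's mean over the 7 arrays, with a point for each array. The members of both phases are highest in the PBS wild type arrays, the mitotic lists are spread in the Irf3-deficient arrays, and the monocyte and macrophage markers lie between -1.13 and -0.52 in the HDM wild type arrays.

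Neutrophil markers showed 2 rises and no falls among 8 in wild type cells. Of 10 epithelial, endothelial and stromal markers 5 fell, and of 11 T, NK and B cell markers 4 rose and 1 fell. Of 8 alveolar macrophage markers 2 rose and 3 fell, and of 8 early progenitor markers 2 rose and 2 fell. Of 13 cDC2 and dendritic cell markers 1 rose and 5 fell. Between the genotypes 1 of these 13 was lower and 6 were higher. Of all genes, 9.23% fell and 8.35% rose in wild type cells, and 9% were lower and 10.7% higher between genotypes.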

How the data were processed

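Per the labels, RNA of 7 pools was hybridised to Affymetrix Mouse Gene 1.0 ST arrays. The authors deposited log2 expression values for 35556 probesets. Per the submitters' processing notes, the tools were R 3.2.1, oligo and RMA. RMA gives arrays nearly equal distributions, so a shift shared by most genes could not be seen. The array medians lay between 7.60 and 7.69. Genome build, scan dates and batches are not given in the sources used here.

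Of the probesets, 21789 carried 1 symbol, 1621 several and 12146 were not listed; those with 1 symbol were used, updated through Entrez identifiers to RefSeq (19856 of 19938 genes matched). For 999 genes with several probesets, the brightest by the mean of 7 arrays was kept. A model with a mean for each of the 3 groups was fitted to the 7 arrays in limma 3.58.1 (R 4.3.3, lmFit, eBayes with an intensity trend, 4 residual and 8.34 prior degrees of freedom). Tests were two-sided, adjusted by Benjamini-Hochberg over all genes, with a threshold of 0.05. Confidence intervals are at 95%. The fit was tested on simulated data.

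The members and lists were chosen with earlier results of these data known. All members are accounted for. Arrays are given 1 by 1 for a panel of them, for the 8 of each phase with the smallest F test p and for members called against the main direction. From other lists up to 2 genes per direction and comparison qualified for naming.

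Pools were not paired by replicate number in the main fit, since the labels state no pairing. The deviations of same-numbered pools from their group means correlated at -0.233 to 0.178. With 2 arrays in each wild type group these deviations mirror each other, so the check could not decide whether numbers pair the pools. The alternatives were robust and untrended eBayes, median centring, 2-group fits, a brightness filter, the mean of probesets, probesets with several symbols, a replicate block and leaving out each array.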

Additional observations from a re-analysis of the deposited data

How the results depend on the processing

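With 2 or 3 pools a group, 1 array could decide a call. A wild type group with 1 pool left out held only 1 array, which weakens the test for every gene. Shares of all genes called in these fits are not given here, so the counts below do not single out the members. Leaving out 1 array at a time, the members that fell with HDM in wild type cells numbered 6 to 25. Between genotypes 3 to 5 were lower and 3 to 8 higher. In Irf3-deficient against PBS cells 3 to 21 were lower and 0 to 2 higher. The S phase median ran from -0.45 to -0.31 in wild type cells, from 0.14 to 0.26 between genotypes and from -0.27 to -0.16 for Irf3-deficient against PBS cells. The G2 and M phase median between genotypes ran from -0.22 to 0.12 and reversed without Irf3-deficient replicate 1 (-0.22) or HDM wild type replicate 2 (-0.01). Itgam, a marker of these cells, was -0.078 between genotypes when probesets with several symbols were added, which reversed its direction. Apart from leaving out arrays, no setting moved a count over all members past 1.5 times, but the 8 G2 and M phase falls in wild type cells became 13 with only the 2 groups compared, 14 with the replicate block and 13 with the crossed block. With a replicate block, 24 members fell in wild type cells, 6 were lower and 4 higher between genotypes, and 17 were lower in Irf3-deficient than in PBS cells. Same-numbered wild type pools deviated in opposite directions (r = -0.233), and crossed numbers as a block, added after seeing the data, gave 24 falls in wild type cells, 7 lower and 4 higher between genotypes, and 14 lower against PBS cells. The labels do not say that a number marks a shared day or litter. Median centring moved the median of all genes by under 0.1 in each comparison.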
